A study of Sus scrofa with 16 samples.

Results

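The genes described here are those of the gonadotrophs and thyrotrophs of the pituitary, the cells that make luteinizing hormone (LH), follicle-stimulating hormone (FSH) and thyroid-stimulating hormone (TSH). The names asked for were CGA, GNRHR, NR5A1, GATA2 and TRHR, and a gene was taken as a member where the symbols that the authors deposited gave that name to a row of their count table. This found 2 of the 5 names, CGA and GATA2, among 25880 genes. NR5A1 and TRHR were found only by a reference table of gene names for the same Ensembl identifiers and are described beside the 2 members, as are FSHB and TSHB, the genes for the partners of the CGA protein. GNRHR and LHB had no identifier in either table and were not analysed here.

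The samples were whole pituitaries of 16 unrelated Złotnicka White gilts, a native Polish breed that was not selected for feed conversion. They came from different farms, were kept alike at 1 test station and carried the label of day 180. The study ended the test at a set body weight, however, and reported a spread of ages. Its HFC pigs of this breed gained less per day, spent more days in test and had more fat at several carcass points. Feed conversion, growth, time in test and fatness can therefore not be told apart between the groups. Of these pigs, 8 had low feed conversion (LFC) and 8 had high feed conversion (HFC), and the study asked which pituitary genes go with feed conversion. No treatment, transgene or pooling of animals was stated. A whole pituitary holds anterior and posterior lobe cells together, so fewer cells of a type and less RNA per cell cannot be told apart in any value below.

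The anterior pituitary makes 3 glycoprotein hormones from a shared part. CGA encodes the common alpha subunit, which pairs with the beta subunit of FSHB or LHB in gonadotrophs and with that of TSHB in thyrotrophs, and the beta subunit gives each hormone its receptor. Gonadotrophs respond to gonadotropin-releasing hormone (GnRH) and depend on the nuclear receptor NR5A1 (steroidogenic factor 1), which also acts on the CGA promoter. Thyrotrophs respond to thyrotropin-releasing hormone through its receptor TRHR, a G protein-coupled receptor, and are held back by thyroid hormone, while the zinc finger factor GATA2 acts in both cell types.

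On the Sscrofa11.1 assembly, the deposited positions put CGA (ENSSSCG00000025434) on chromosome 1 from 55551320 to 55569012 and GATA2 (ENSSSCG00000011618) on chromosome 13 from 71984067 to 71999729. RefSeq places NR5A1 on chromosome 1 from 265284491 to 265311547, FSHB on chromosome 2 from 30395769 to 30399282, TRHR on chromosome 4 from 28480637 to 28482031 and TSHB on chromosome 4 from 105553070 to 105558769. Their Ensembl identifiers in the count table were ENSSSCG00000005588 for NR5A1, ENSSSCG00000013328 for FSHB, ENSSSCG00000040768 for TRHR and ENSSSCG00000006749 for TSHB. All values are of whole genes, and no exon or isoform was measured apart.

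Reads counted on genes summed to between 6010629 and 11794256 per pig, with a median of 7803047 in the LFC and 9027332 in the HFC pigs. Levels are given as CPM, the counts relative to the library total after scaling by edgeR's TMM method, and they are compared between pigs and not between genes, since no exonic lengths were used. A log2 fold change above 0 means a higher level in the HFC pigs. HFC replicate 5 had the lowest total of all pigs and stood apart, since leaving it out took the genes at an unadjusted p of at most 0.05 from 1559 to 3514. GFAP, a marker of astrocyte-like cells of the posterior lobe, was above 500 CPM in LFC replicates 1 and 5 and HFC replicate 6 and at most 83.9 CPM in the other 13 pigs. MBP, a myelin gene also taken as a posterior lobe and glia marker, was 794 CPM in LFC replicate 7 and 578 CPM in LFC replicate 1. The set chosen by GFAP therefore does not hold every pig that was high in such markers. Values without these pigs stand beside the results whose direction they turn or whose size they change most. Of 8 markers of gonadotrophs and thyrotrophs, 6 had an identifier, and none of these was at 0 in all pigs, so the defining markers of these cells that could be read were present.

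CGA was lower in most HFC than LFC pigs, but the difference did not pass the adjusted test. In the 8 LFC pigs its level was lowest at 18526 CPM, had a median of 22002 CPM and was highest at 53610 CPM. In the 8 HFC pigs it was lowest at 12038 CPM, had a median of 16259 CPM and was highest at 36287 CPM. The groups overlapped, with 6 of 8 HFC pigs below the LFC median and 5 of 8 below the lowest LFC pig. The means were 28002 ± 12684 CPM (SD, n = 8) for LFC and 18949 ± 8034 CPM (SD, n = 8) for HFC. The log2 fold change was −0.56 ± 0.27 (standard error, SE) and a 95% confidence interval from −1.12 to −0.01 (unadjusted p = 0.0475, adjusted p = 0.433, edgeR's quasi-likelihood F test, Benjamini-Hochberg adjusted over 13621 genes). The exact two-sided permutation test on log2(CPM + 1) gave p = 0.0628 for the same difference.

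Of the 2 members, edgeR's quasi-likelihood test called 0 (adjusted p up to 0.05, fold change from 1.3), and of all 13621 genes tested it also called 0 (0%). DESeq2 called 30 of 18963 genes (0.158%), among which neither member was found. At an unadjusted p of at most 0.05 edgeR had 1 of the 2 members, CGA, against 1559 of all genes (11.4%). Of these, 958 were higher (7.03% of the genes tested) and 601 lower in the HFC pigs (4.41%). The share that was higher was 61.4% with TMM scaling and 46% with total counts in its place.

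**Figure D1:**
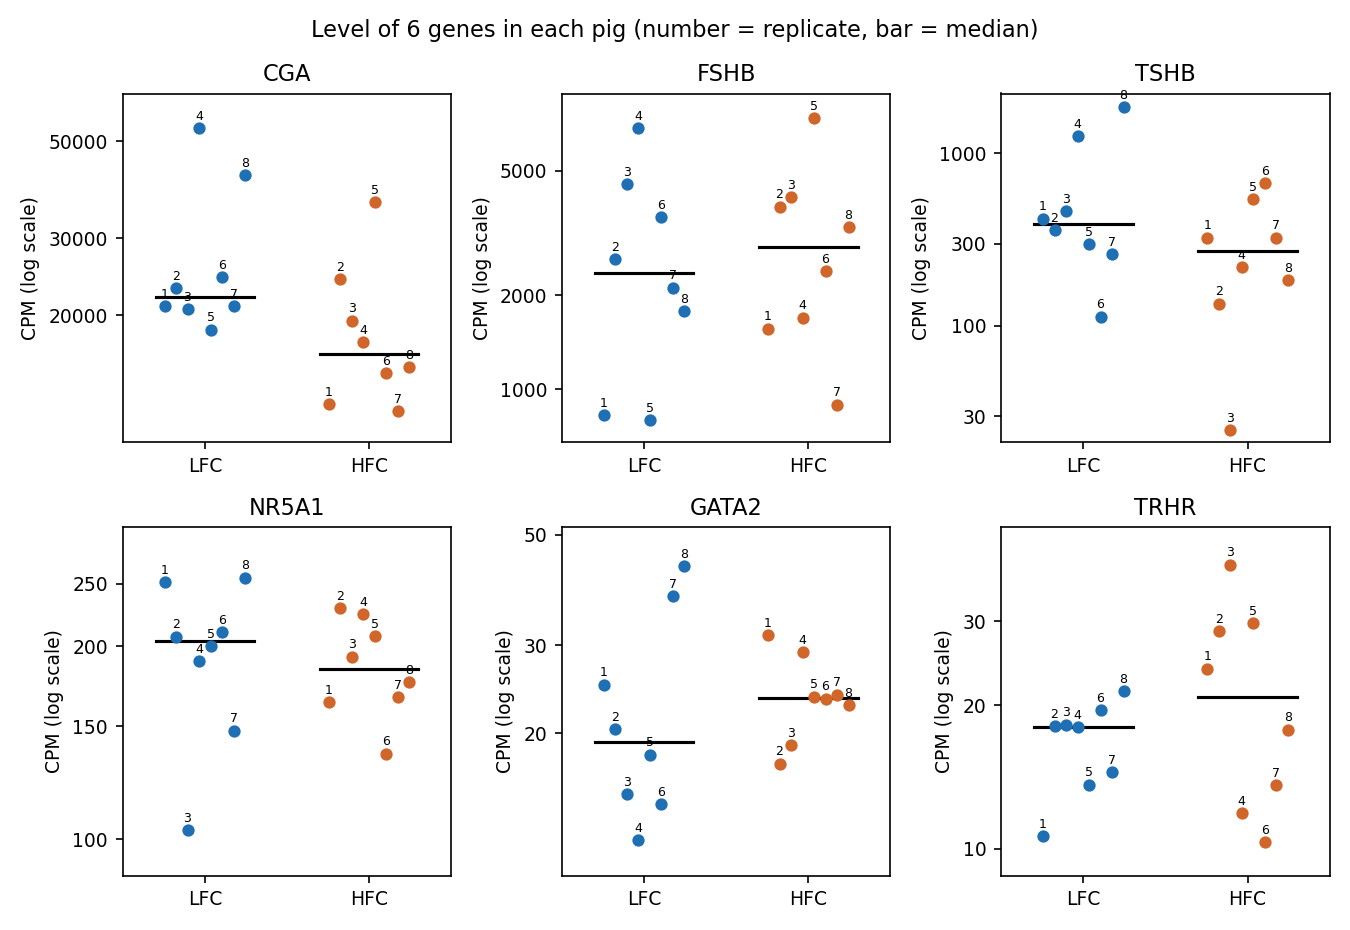
Level of CGA, FSHB, TSHB, NR5A1, GATA2 and TRHR in each pig as CPM on a log axis, by group (blue LFC, orange HFC). Each point is 1 pig with its replicate number and the black bar is the median of 8 pigs. In CGA, 5 of 8 HFC pigs lie below the lowest LFC pig, and in every panel the groups overlap.

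A few pigs carried the highest CGA. LFC replicates 4 and 8 had 53610 and 41800 CPM, and HFC replicate 5 had 36287 CPM. The next pig, LFC replicate 6, had 24467 CPM, so these 3 pigs stood above a continuous range that ended at HFC replicate 7 with 12038 CPM. The other 6 LFC pigs lay between 18526 and 24467 CPM, a range that 2 of the HFC pigs shared. Without LFC replicates 4 and 8, pigs chosen after their values were seen, the log2 fold change of CGA was −0.17, and without HFC replicate 5 it was −0.74 with an adjusted p of 0.097 in edgeR and an exact permutation p of 0.00777.

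Neither beta subunit passed the test between the groups. FSHB, which encodes the part of FSH that its receptor recognises, ranged from 799 to 6842 CPM in the LFC pigs with a median of 2362 CPM. In the HFC pigs it ranged from 895 to 7345 CPM with a median of 2846 CPM. These ranges lay almost one over the other. The means were 2880 ± 2044 CPM (SD, n = 8) for LFC and 3143 ± 2047 CPM (SD, n = 8) for HFC. The log2 fold change was 0.13 ± 0.44 (SE) and a 95% interval from −0.80 to 1.05 (edgeR adjusted p = 0.906), so a difference of about the size seen in CGA lay inside the interval in either direction. The exact permutation test gave p = 0.699. The sign of the change was not stable, since it turned in 4 of 29 alternatives, to −0.16 without HFC replicate 5 and to −0.14 without the 3 pigs with high GFAP.

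TSHB, the beta subunit of TSH, differed most among pigs, with 74.3 times as much in the highest as in the lowest pig. In the LFC pigs it ranged from 113 to 1852 CPM with a median of 388 CPM. In the HFC pigs it ranged from 24.9 to 671 CPM with a median of 272 CPM. The lowest value belonged to HFC replicate 3, where it rested on 229 counts, and the highest values, 1852 and 1256 CPM, to LFC replicates 8 and 4, both also among the 3 pigs with the most CGA. The means were 627 ± 603 CPM (SD, n = 8) for LFC and 303 ± 214 CPM (SD, n = 8) for HFC. The log2 fold change was −1.05 ± 0.56 (SE) and a 95% interval from −2.23 to 0.13 (edgeR adjusted p = 0.455), and the exact permutation test gave p = 0.169. Without LFC replicates 4 and 8 it was −0.06, and without the 3 pigs with high GFAP it was −1.52.

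NR5A1, the gonadotroph nuclear receptor, had the smallest ratio of the highest to the lowest of the 16 pigs, 2.48, although TRHR had the lower coefficient of variation within the LFC pigs (21.1% against 25.9%). It ranged from 103 to 256 CPM in the LFC pigs with a median of 204 CPM, and from 136 to 229 CPM in the HFC pigs with a median of 184 CPM. All HFC values lay inside the LFC range. The means were 196 ± 50.6 CPM (SD, n = 8) and 187 ± 32.4 CPM (SD, n = 8), and the log2 fold change was −0.07 ± 0.16 (SE) (edgeR adjusted p = 0.862). Its 95% interval from −0.40 to 0.27 overlapped that of CGA, from −1.12 to −0.01. Its sign turned in 4 of 29 alternatives, to 0.0659 without the 3 pigs with high GFAP.

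GATA2 was read at a low level, with 80 to 357 counts per pig. In the LFC pigs it ranged from 12.2 to 43.2 CPM with a median of 19.2 CPM, and in the HFC pigs from 17.4 to 31.4 CPM with a median of 23.6 CPM. All HFC values again lay inside the LFC range, whose ends were LFC replicates 4 and 8, the pigs with the most CGA. The means were 23.2 ± 11.4 CPM (SD, n = 8) and 23.8 ± 4.66 CPM (SD, n = 8), with a coefficient of variation of 49.1% in the LFC and 19.6% in the HFC pigs, a difference in spread that was not tested. The log2 fold change was 0.03 ± 0.23 (SE) and a 95% interval from −0.45 to 0.52 (edgeR adjusted p = 0.954), and the exact permutation test gave p = 0.575. Its sign turned in 8 of 29 alternatives, which gave values from −0.16 to 0.24.

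TRHR, the receptor that carries the signal for TSH release, had 84 to 362 counts per pig. It ranged from 10.6 to 21.4 CPM in the LFC pigs with a median of 18.0 CPM, and from 10.3 to 39.4 CPM in the HFC pigs with a median of 20.8 CPM. Of the HFC pigs, 4 lay above the highest LFC pig (23.9, 28.6, 29.7 and 39.4 CPM). The lowest value of all 16, 10.3 CPM, was also in an HFC pig but close to the lowest LFC value of 10.6 CPM. The remaining HFC pigs lay inside the LFC range. The means were 16.7 ± 3.53 CPM (SD, n = 8) and 21.9 ± 10.3 CPM (SD, n = 8). The log2 fold change was 0.38 ± 0.24 (SE) and a 95% interval from −0.13 to 0.89 (edgeR adjusted p = 0.502), and the exact permutation test gave p = 0.322. HFC replicate 3 held both the highest TRHR, 39.4 CPM, and the lowest TSHB, 24.9 CPM.

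For scale, the genes of the other anterior lobe cells were read in the same fit. PRL, the hormone of lactotrophs, had a log2 fold change of 1.27 ± 0.28 (SE) and POMC, the hormone precursor of corticotrophs and melanotrophs, one of −1.23 ± 0.31 (SE), at edgeR adjusted p-values of 0.372 and 0.383, and both were among the 30 genes that DESeq2 called. GH1, the hormone of somatotrophs, had one of 0.04 ± 0.24 (SE) (edgeR adjusted p = 0.941). The fitted change of CGA was smaller than those of PRL and POMC and larger than that of GH1 in these libraries.

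CGA was also taken relative to the regulators within each pig, as the difference of log2(CPM + 1), because such a ratio is free of the scaling between libraries. The planned ratio to GNRHR could not be formed, and 5 other ratios were formed after the data were seen. CGA over TRHR lay between 10.07 and 11.47 in the LFC pigs and between 8.91 and 10.39 in the HFC pigs. Its mean was 10.55 ± 0.47 (SD, n = 8) for LFC and 9.73 ± 0.57 (SD, n = 8) for HFC, with 7 of 8 HFC pigs below the LFC median. The difference was −0.82, larger than the spread between pigs of a group, with an exact permutation p of 0.00668, unadjusted for the 5 ratios. With each pig left out in turn it stayed between −0.91 and −0.69, with exact p between 0.00357 and 0.0138.

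The other 4 ratios did not pass with all pigs. CGA over NR5A1 differed by −0.52 (exact permutation p = 0.0606, from 0.0165 to 0.120 with 1 pig left out) and CGA over GATA2 by −0.69 (exact permutation p = 0.0937, from 0.0376 to 0.188 with 1 pig left out). CGA over FSHB differed by −0.75 (exact permutation p = 0.0743) and CGA over TSHB by 0.45 (exact permutation p = 0.525). CGA was therefore lower relative to TRHR in the HFC pigs. The ratio to the beta subunits went down for FSHB and up for TSHB, and neither passed the exact permutation test. A ratio moves with either of its genes, and TRHR itself had a fitted log2 fold change of 0.38. Which cells of the whole pituitary carried the TRHR reads was not tested.

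The next comparison asked whether genes of the same cells vary together over the pigs. Over the 15 pairs of the 6 genes, 2 had a permutation p of at most 0.05 for Pearson's r and 4 for Spearman's rho, and none remained after Benjamini-Hochberg adjustment over the 15 pairs. CGA and FSHB had a Pearson's r of 0.54 over 16 pigs (permutation p = 0.0301, adjusted 0.226) with a Spearman's rho of 0.52 (permutation p = 0.0425, adjusted 0.159). Within the LFC pigs r was 0.52 (exact permutation p = 0.173, n = 8), and within the HFC pigs it was 0.87 (exact permutation p = 0.00444, n = 8). After each group's mean was taken off r was 0.68, and with the 2 pigs that lay farthest from the CGA median (LFC replicates 4 and 8) left out it was 0.59. The unadjusted call did not hold without LFC replicate 4 (r = 0.42, permutation p = 0.122), without HFC replicate 5 (r = 0.47, permutation p = 0.0769), without HFC replicate 7 (r = 0.47, permutation p = 0.0796) or with total counts in place of TMM (r = 0.41, permutation p = 0.117).

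CGA and TSHB had a weaker relation over the 16 pigs. Pearson's r was 0.44 over 16 pigs (permutation p = 0.0898, adjusted 0.337) and Spearman's rho 0.28 (permutation p = 0.287, adjusted 0.628). Within the LFC group it was 0.76 (exact permutation p = 0.0369, n = 8), and within the HFC group −0.06 (exact permutation p = 0.870, n = 8). The difference between these was not tested. Without LFC replicates 4 and 8, r was −0.04 over the remaining pigs. With 1 pig left out r ranged from 0.29 (without LFC replicate 4) to 0.53 (without HFC replicate 3, permutation p = 0.0395). The relation thus depended on these few pigs.

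**Figure D2:**
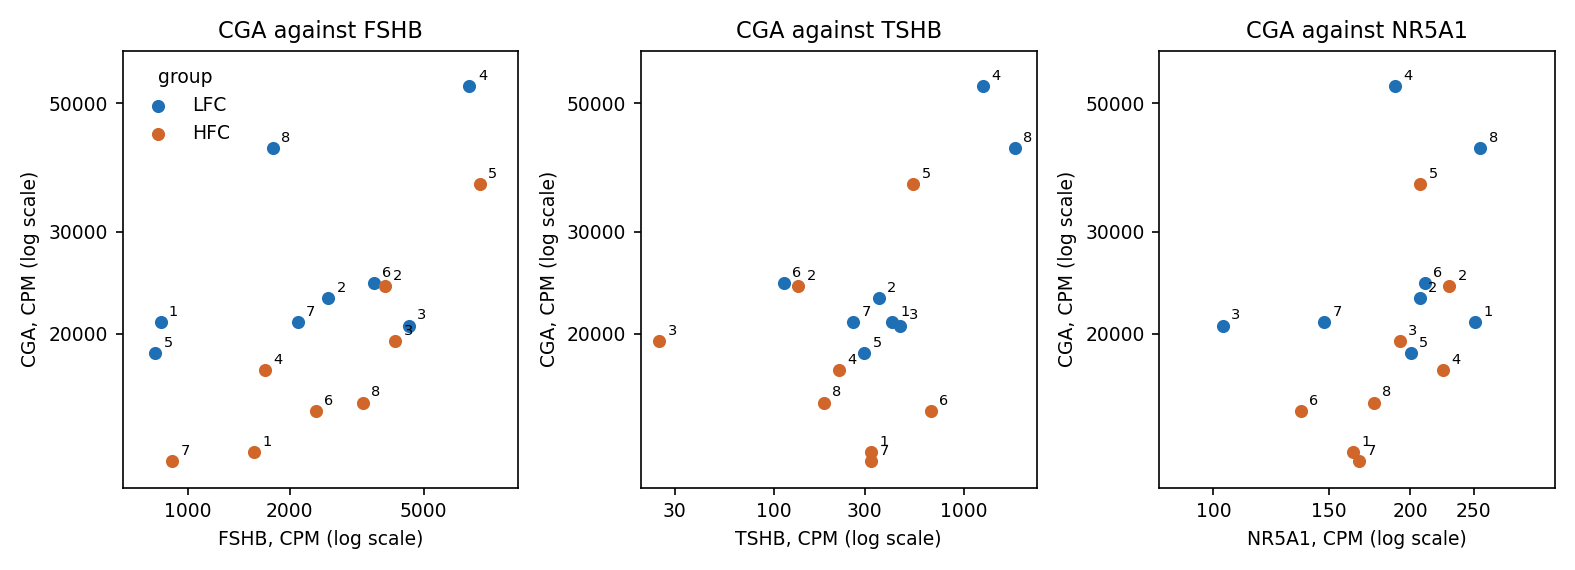
CGA against FSHB, TSHB and NR5A1 in each pig, both axes as CPM on log scales (blue LFC, orange HFC, numbers are replicates). The HFC pigs line up in the FSHB panel (r = 0.87 on log2 values), and LFC replicates 4 and 8 stand at the upper right of the TSHB panel.

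The 3 pigs with the most CGA differed in their beta subunits. LFC replicate 4 was high in both, with 6842 CPM of FSHB and 1256 CPM of TSHB. LFC replicate 8 had the highest TSHB of all, 1852 CPM, but 1782 CPM of FSHB, below the LFC median. HFC replicate 5 had the highest FSHB of all, 7345 CPM, and 542 CPM of TSHB, the fourth highest. A linear fit of log2 CGA on log2 FSHB and log2 TSHB, added after these values were seen and given as a description, took up 52.2% of the variance over 16 pigs, with slopes of 0.34 and 0.20.

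Among the regulators, FSHB and TRHR had the largest coefficient of the 15 pairs, a Pearson's r of 0.60 (permutation p = 0.0142, adjusted 0.214) with a Spearman's rho of 0.59 (permutation p = 0.0173, adjusted 0.147). It was 0.68 within the LFC pigs (exact permutation p = 0.0657, n = 8), 0.64 within the HFC pigs (exact permutation p = 0.0888, n = 8) and 0.49 without the 2 pigs farthest from the FSHB median. CGA and NR5A1 had an r of 0.39 (permutation p = 0.137, adjusted 0.343) and a rho of 0.55 (permutation p = 0.0294, adjusted 0.147). FSHB and GATA2 went in opposite directions, with an r of −0.46 (permutation p = 0.0725, adjusted 0.337) and a rho of −0.56 (permutation p = 0.0236, adjusted 0.147). The other 10 pairs had r between −0.40 and 0.31, none with a permutation p of at most 0.05. Among them, TSHB and TRHR, both described above for thyrotrophs, had an r of −0.40 (0.27 within the LFC and −0.60 within the HFC pigs). FSHB and NR5A1, both described for gonadotrophs, had −0.18 (−0.48 within the LFC and 0.39 within the HFC pigs). Genes of the same cells thus did not vary together in every pair, and the largest coefficient joined genes described for different cells.

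**Figure D3:**
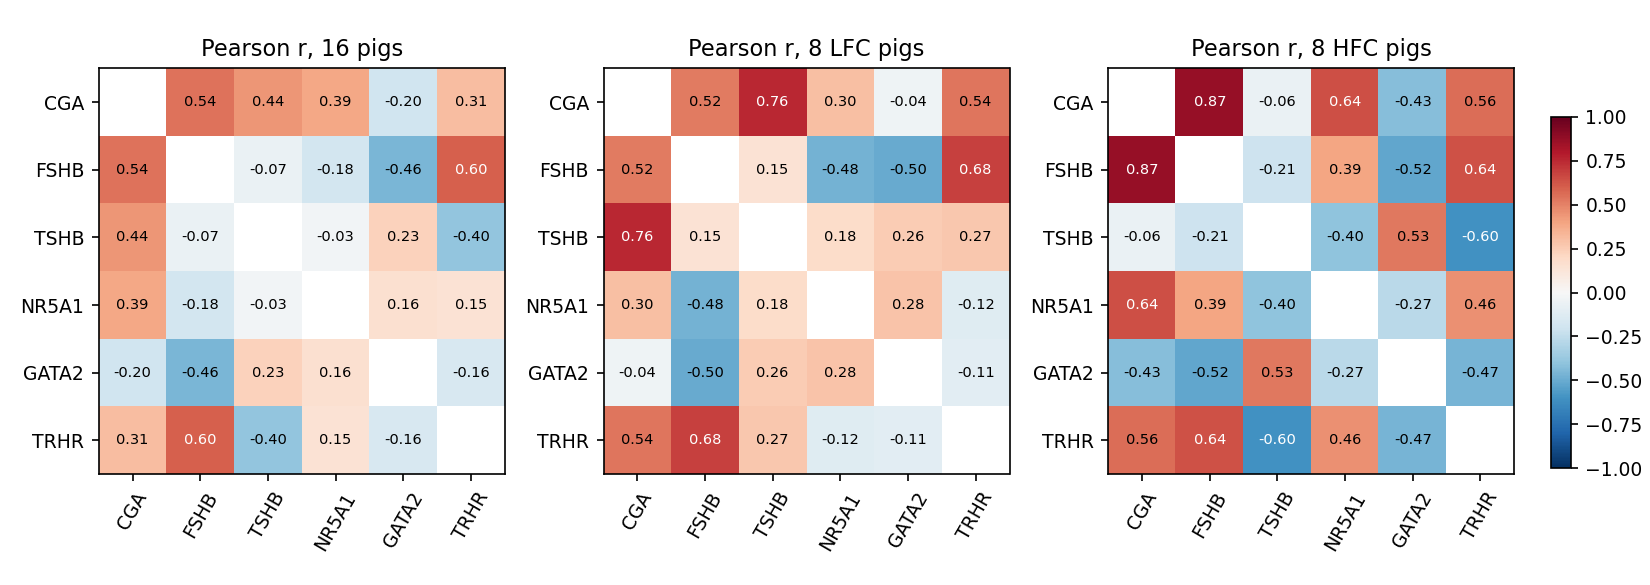
Pearson's r of log2(CPM + 1) for each pair of 6 genes over all 16 pigs, the 8 LFC pigs and the 8 HFC pigs, from −1 (blue) to 1 (red). The CGA and FSHB cell is red in all 3 panels (0.54, 0.52 and 0.87), whereas the CGA and TSHB cell is 0.76 in the LFC and −0.06 in the HFC panel.

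For each regulator and for CGA, the 3 named genes whose levels were most like it over the 16 pigs were found by Pearson's r on log2 CPM. For CGA these were OXSM (r = 0.92), APOOL (r = 0.92) and GGH (r = 0.91), and 295 of the genes tested reached an r of 0.8. For GATA2 they were RBPJ (r = 0.89), MARCKS (r = 0.84) and ATF7IP (r = 0.83), and 6 genes reached 0.8. For TRHR they were ASB4 (r = 0.90), RDX (r = 0.85) and FAM43A (r = 0.85), and 10 genes reached 0.8. For NR5A1 they were GALNT17 (r = 0.85), IGDCC4 (r = 0.77) and CYGB (r = 0.76), and 1 gene reached 0.8. These are descriptions over 16 points that share library, depth and scaling. CGA thus had many genes of like pattern and NR5A1 almost none. For GATA2, r with RBPJ was 0.97 in the LFC pigs, where GATA2 had the wider spread, and 0.43 in the HFC pigs, and the difference was not tested.

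The genes downstream of the GnRH receptor were described next, from a list of 32 names of which 30 were tested. The receptor acts through Gq proteins, phospholipase C, protein kinase C and the MAP kinases to immediate early factors that act on the subunit genes. At an unadjusted p of at most 0.05, 2 of the 30 were higher in the HFC pigs and 0 lower (6.67% and 0%, against 7.03% and 4.41% of all genes), and 0 passed adjustment in edgeR or DESeq2. The median log2 fold change was 0.09, against −0.01 over all genes. JUN, a subunit of the AP-1 factor, ranged from 42.6 to 76.5 CPM in the LFC and from 62.2 to 102 CPM in the HFC pigs, all 8 of which lay above the LFC median. Its log2 fold change was 0.37 ± 0.13 (SE) (unadjusted p = 0.00898, edgeR adjusted p = 0.413).

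PRKCB, a protein kinase C, had a log2 fold change of 0.43 ± 0.16 (SE) (unadjusted p = 0.0186, edgeR adjusted p = 0.413), and 5 of 8 HFC pigs lay above the highest LFC pig. ITPR3, a calcium channel opened by inositol trisphosphate, had one of 0.60 ± 0.29 (SE) (unadjusted p = 0.0530, edgeR adjusted p = 0.433). JUNB was left out by the expression filter. Without HFC replicate 5 the count was 5 in place of 2, with ITPR3, PRKCA and CAMK2B added, against 13.8% of all genes higher at this p in that fit.

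Of 20 lineage and promoter factors 16 were tested, and 0 were at an unadjusted p of at most 0.05 in either direction by edgeR, against 7.03% of all genes higher and 4.41% lower, with 0 called by DESeq2. Their median log2 fold change was 0.02. EGR1, the factor that GnRH induces on the LH beta gene, was widely spread, from 26.7 to 198 CPM in the LFC and from 59.9 to 208 CPM in the HFC pigs. All 8 HFC pigs lay above its LFC median of 53.0 CPM, with a log2 fold change of 0.45 and a standard error of 0.39 (edgeR adjusted p = 0.592). That change was 0.25 without HFC replicate 1, 0.80 without LFC replicate 7 and 0.0479 with the length slope of each pig, described below, as a covariate.

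The thyrotroph and thyroid hormone feedback list held the most genes at an unadjusted p of at most 0.05, namely 7 of 23 tested, all higher in the HFC pigs (30.4%, against 7.03% of all genes), and 0 lower. None of the 7 passed adjustment in edgeR, and 0 were called by DESeq2. The list median was 0.08. EYA3, a coactivator that switches on TSHB with day length in seasonal mammals, ranged from 35.3 to 54.7 CPM in the LFC and from 41.9 to 67.4 CPM in the HFC pigs, of which 5 lay above the highest LFC pig. Its log2 fold change was 0.38 ± 0.11 (SE) (unadjusted p = 0.00268, edgeR adjusted p = 0.391). Others were cofactors of nuclear receptors. The corepressor NCOR1 had a log2 fold change of 0.46, and the coactivators NCOA2, NCOA3 and MED1 had 0.43, 0.39 and 0.24, each with 7 of 8 HFC pigs above the LFC median. Of the receptors themselves, THRA, the thyroid hormone receptor alpha gene, had a log2 fold change of −0.05 (unadjusted p = 0.606) and THRB, the receptor beta gene, had 0.21 (unadjusted p = 0.206), by edgeR. POU1F1, the lineage factor of thyrotrophs, had 0.08 (unadjusted p = 0.637) and DIO2, which makes the active hormone, 0.19 (unadjusted p = 0.275), by edgeR. DIO1 was left out by the expression filter.

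**Figure D4:**
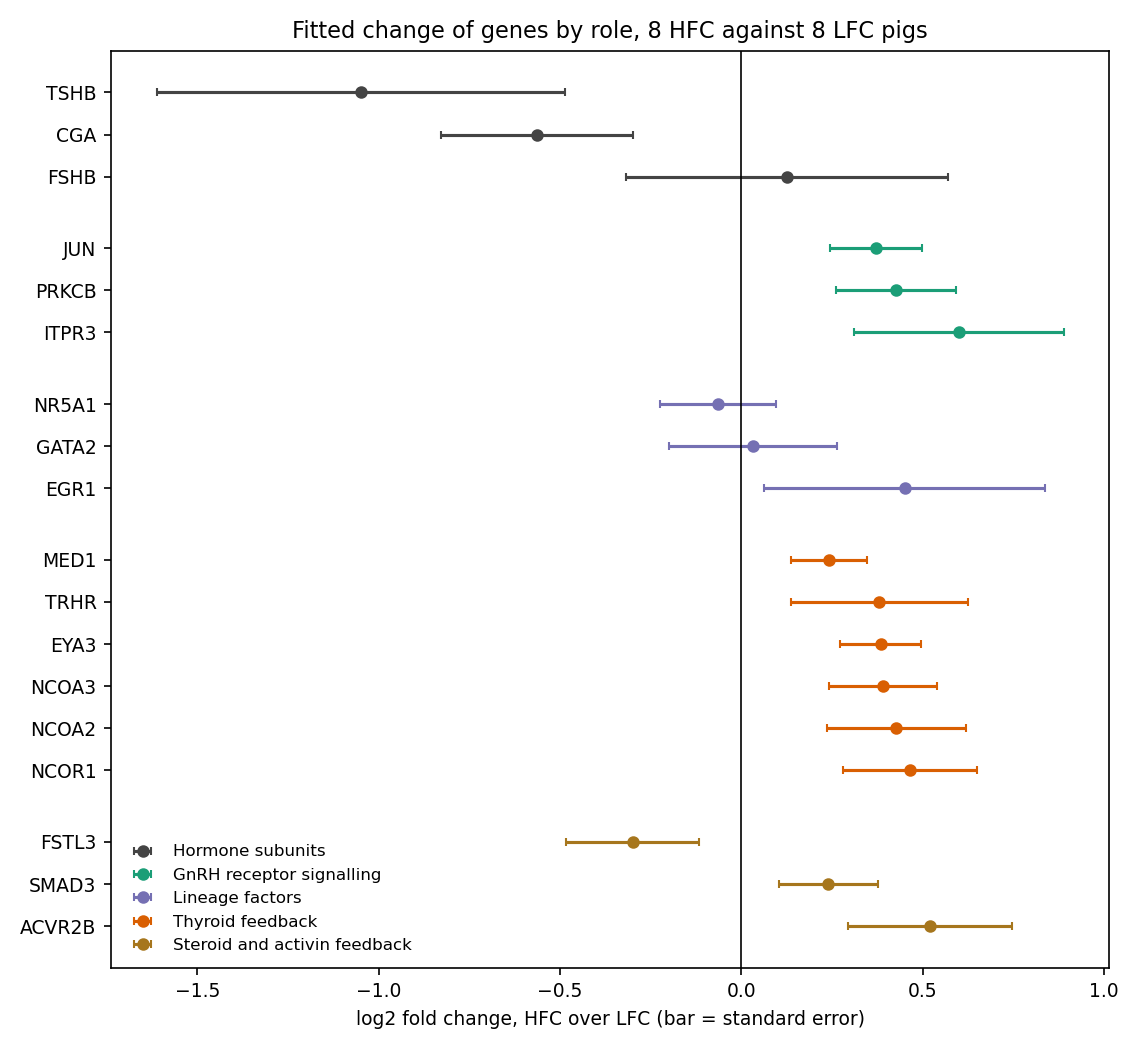
Fitted log2 fold change, HFC over LFC, of genes described in the text, grouped by role, from 8 HFC and 8 LFC pigs. Bars are standard errors. CGA and TSHB lie left of 0, and the feedback genes EYA3, NCOR1, NCOA2, NCOA3 and MED1 lie right of it, between 0.24 and 0.46.

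A property of the libraries moved with these 7 genes, which had been picked from the list by their p. For each pig, log2 CPM was first taken relative to each gene's mean over all pigs. The slope of these values on the log10 of the gene's span in the genome was computed over 10890 genes. A lower slope therefore means that long genes were read less than in the average pig. The means of the groups mirror each other by construction, so their signs are no absolute length trends. The slope was −0.06 ± 0.15 (SD, n = 8) for LFC and 0.06 ± 0.13 (SD, n = 8) for HFC (exact permutation p = 0.125). It was lowest in LFC replicates 6 and 4 and HFC replicate 5, at −0.27, −0.27 and −0.21, and these 3 pigs also had the lowest mean of the 7 feedback genes, at 4.96, 5.14 and 5.32 on the log2(CPM + 1) scale. The means of the other 13 pigs lay between 5.49 and 6.19. LFC replicate 4 and HFC replicate 5 were also among the 3 pigs with the most CGA.

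With the slope as a covariate, added after the data were seen, 2 of the 23 genes of the list were higher at an unadjusted p of at most 0.05, among them EYA3 at a log2 fold change of 0.22, where 2.73% of all genes were higher at this p. The log2 fold change of CGA was then −0.35 and that of TRHR 0.43. Over all pigs, r with the slope was 0.95 for the mean of the feedback genes picked by their p, −0.62 for CGA and 0.60 for GATA2. It was −0.45 for FSHB, −0.27 for TSHB, −0.05 for NR5A1 and −0.01 for TRHR. The part of the slope in the differences between the groups was not tested further.

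**Figure D5:**
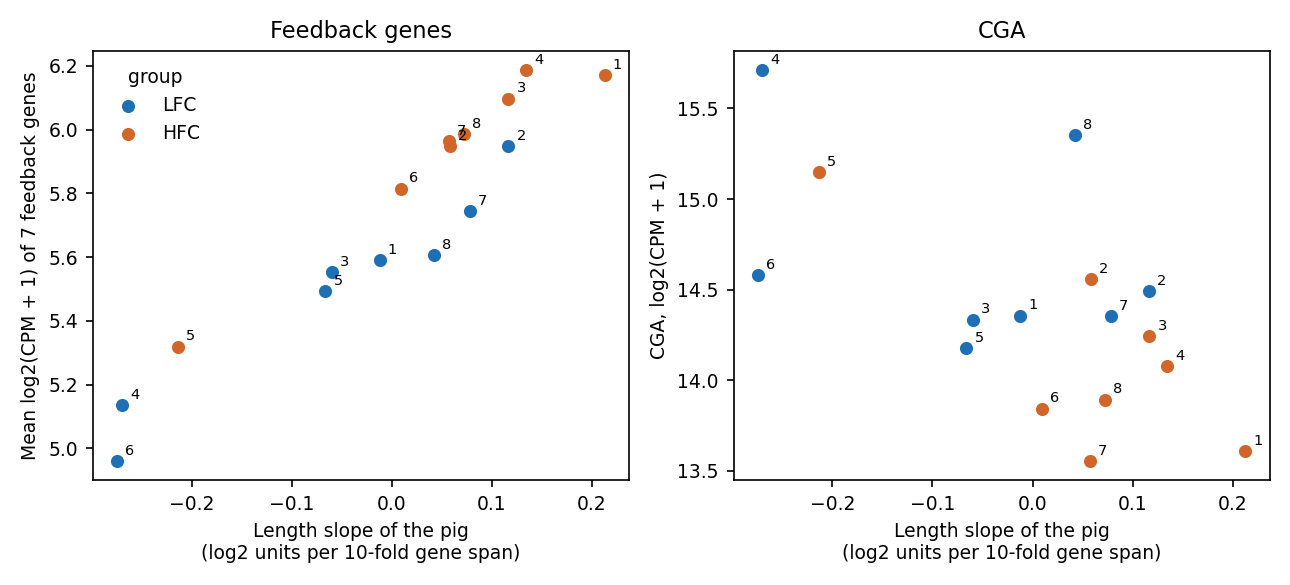
Length slope of each pig against the mean log2(CPM + 1) of the 7 feedback genes (left) and log2(CPM + 1) of CGA (right). The slope (horizontal axis, log2 units per 10-fold gene span) is relative to the average pig. Points are pigs with replicate numbers (blue LFC, orange HFC). The 3 pigs with slopes of −0.21 or lower have the lowest means on the left, and 2 of them are among the 3 highest in CGA on the right.

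Of 21 genes of gonadal steroid and activin feedback 18 were tested, and 1 was higher and 0 lower at an unadjusted p of at most 0.05 (a share of 5.56%, where all genes had 7.03% higher, 4.41% lower), with none passing adjustment in edgeR or DESeq2. The list median was 0.05. That gene was ACVR2B, an activin receptor, at a low level of 3.81 ± 1.19 CPM (SD, n = 8) for LFC and 5.49 ± 1.59 CPM (SD, n = 8) for HFC (log2 fold change 0.52, unadjusted p = 0.0337, edgeR adjusted p = 0.427). SMAD3, which relays the activin signal to FSHB, had a log2 fold change of 0.24 (edgeR adjusted p = 0.467). FSTL3, which binds and blocks activin, had one of −0.30 (edgeR adjusted p = 0.488). INHBA, FST and ESR2 were left out by the expression filter.

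Markers of other cells were summed in each pig to set beside these results. The 5 corticotroph and melanotroph markers summed to between 15767 and 84070 CPM in the LFC and between 8714 and 26083 CPM in the HFC pigs. The 5 lactotroph and somatotroph markers summed to between 59574 and 91841 CPM in the LFC and between 74441 and 175317 CPM in the HFC pigs. Of these 5, 4 had a higher and 1 a lower fitted level in the HFC pigs. PRL had a log2 fold change of 1.27 but GH1 only 0.04, so this sum does not speak for both cell types. The 5 posterior lobe and glia markers with an identifier summed to between 126 and 5806 CPM in the LFC and between 108 and 3161 CPM in the HFC pigs. The 5 fibroblast markers summed to between 147 and 332 CPM in the LFC and between 263 and 538 CPM in the HFC pigs, but 3 had a higher and 2 a lower fitted level in the HFC pigs, so the sum mainly followed its most abundant gene. The 6 endothelial and blood markers summed to between 415 and 1527 CPM in the LFC and between 216 and 1167 CPM in the HFC pigs, a sum that did not speak for all of them, since 4 were higher and 2 lower in the HFC pigs, with 2 and 1 of these at an unadjusted p of at most 0.05 by edgeR. Macrophage markers ranged from 149 to 258 and from 84.2 to 302 CPM, and stem and folliculostellate markers from 109 to 223 and from 148 to 222 CPM, in the LFC and HFC pigs. Fitted levels also went both ways among the macrophage (1 higher, 4 lower in HFC), stem (2 higher, 1 lower) and posterior lobe markers (1 higher, 3 lower). None of the markers with an identifier was at 0 in all pigs. The part of these other cells in the level of CGA was not tested, beyond the log2 fold change of −0.65 without the 3 pigs with high GFAP.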

How the data were processed

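RNA from whole pituitaries of 16 gilts (8 LFC, 8 HFC) was sequenced as single, unstranded reads. Per the study's methods, the authors cleaned the reads by quality and length, mapped them to Sscrofa11.1 (Ensembl genes) and quantified them with RSEM and STAR (Bowtie 2 is named as well). They deposited unnormalized whole-number counts of reads per gene and pig, 6010629 to 11794256 per pig. A second deposited table holds the symbols and positions used here, beside the authors' group means, fold changes and p-values, which were not used. The group of each pig came from its feed conversion label, which is stored under a tag named for another trait.

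Counts were scaled by TMM and filtered in edgeR 4.0.16 (R 4.3.3), and the 13621 genes that passed were fitted with the group as the only term. Quasi-likelihood F tests were adjusted by Benjamini-Hochberg, and genes were called at an adjusted p up to 0.05 with a fold change from 1.3. Single genes and ratios were compared by exact two-sided permutation over 12870 splits of the pigs, on log2(CPM + 1). Correlations used 100000 permutations, exact within groups (Python 3.11.15, scipy 1.17.1). Symbols came from the deposited table (9550 genes), a reference name table (5875) or position (323), and 10132 genes had none. Where both tables gave a symbol (8982 genes), 96.2% were the same. Of 137 genes in the lists, 128 had an identifier. Within groups, chi-square per degree of freedom between libraries was 11.9 to 91.0, so no library was a near copy of another.

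Genes named are the members, the subunit genes, the list genes at an unadjusted p of at most 0.05 (or the 3 smallest), the 3 genes most like each member, and PRL, POMC and GH1. NR5A1 and TRHR were treated as members in this rule, while GFAP, MBP, THRA, THRB, POU1F1, DIO2, PRKCA and CAMK2B were named after their values were seen. Some genes of the lists are not reported here by name. Members and lists were chosen with earlier results of these data known. Alternatives were DESeq2 1.42.0, limma 3.58.1 (voom), RLE, upper-quartile and total scaling, other filters, robust estimation, a replicate block, a pseudocount of 0.1 and each pig left out. After the data were seen, sets of pigs left out and the length slope were added. The edgeR and DESeq2 fits were tested on simulated data. Of 100 genes changed 1.5-fold, edgeR recovered 47 and DESeq2 57, and of 100 genes changed 2-fold they recovered 79 and 84. They also called 10 and 23 unchanged genes. A gene that was not called may therefore still differ between the groups.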

Additional observations from a re-analysis of the deposited data

Results flagged for a closer look

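Among 25 genes examined, each in 8 LFC and 8 HFC pigs, 1 of 50 groups had a pig far from the others. POMC in LFC replicate 3 was 83136 CPM, with the next LFC pig at 46767 CPM, a gap of 0.54 of the group's whole range. Chance sets a pig apart in about 1 in 20 groups. POMC is no gene of gonadotrophs or thyrotrophs. CGA, FSHB, TSHB, NR5A1, GATA2 and TRHR had no such pig in either group.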

How the results depend on the processing

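Over 29 alternatives edgeR, DESeq2 and voom called neither member, and CGA kept its direction, with log2 fold changes from −0.74 to −0.17. DESeq2 called 30 genes where edgeR called 0. Genes at an unadjusted p of at most 0.05 numbered 2540 with voom, 879 without LFC replicates 4 and 8, 650 with the length slope, and 989 to 3514 (without HFC replicate 5) with 1 pig left out. FSHB turned to −0.14 (mean difference −0.28) without the 3 pigs with high GFAP. NR5A1 turned to 0.00896 with voom, to 0.0143 (mean difference 0.0391) without LFC replicates 4 and 8 and to 0.0659 (mean difference 0.11) without the pigs with high GFAP. GATA2 turned to −6.64e-06 without the latter and to −0.16 with the length slope, and FSTL3 to 0.00581 and GH1 to −0.14 with the slope. The exact test of CGA with total counts gave −0.54 (p = 0.0319). With total counts, 1 pair had a Pearson p of at most 0.05, and r of NR5A1 and TRHR was −0.0263.

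Genes higher at this p made up 6.66% of all genes with the block, 2.73% with the slope, 13.8% without HFC replicate 5, 4.29% without LFC replicates 4 and 8 and 6.10% without the pigs with high GFAP. Set against these shares, GnRH signalling had 1 of 30 (JUN) with the block and with the slope and 5 without HFC replicate 5, and lineage factors had 1 of 16 without LFC replicates 4 and 8. Thyroid feedback had 2 of 23 with the slope. Steroid and activin feedback had 2 of 18 (ACVR2B, SMAD3) with the block and without the pigs with high GFAP, 0 with the slope and 2 without HFC replicate 5.

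With 1 pig left out, ranges were −0.74 to −0.35 for CGA (mean difference −0.70 to −0.40, exact p = 0.00777 to 0.124, lowest without HFC replicate 5), −0.052 to 0.24 for GATA2, −0.16 to 0.45 for FSHB (mean difference −0.0151 to 0.43), −0.14 to 0.0173 for NR5A1 (mean difference −0.16 to 0.0283) and −0.10 to 0.15 for GH1. TSHB ranged from −1.32 to −0.55 (without LFC replicate 8) and TRHR from 0.20 (without HFC replicate 3) to 0.49. Pairs at this p numbered 1 to 4. Coefficients ranged from −0.55 to 0.10 for CGA and GATA2, −0.25 to 0.10 for FSHB and TSHB, −0.25 to 0.0532 for TSHB and NR5A1, −0.0232 to 0.49 for TSHB and GATA2, −0.0569 to 0.30 for NR5A1 and GATA2 and 0.42 to 0.66 for CGA and FSHB. The cause of these shifts was not tested.

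Replicate numbers did not pair the pigs, as deviations of same-numbered pigs correlated at −0.34 to 0.37, over 0.1 in 3 of 8 pairs, and 0 pigs correlated best with their own number. The replicate block gave a log2 fold change of −0.56 for CGA, 0.13 for GATA2 and −0.0315 for GH1, and 1404 genes at an unadjusted p of at most 0.05. The ratio of CGA to GNRHR was not run. GATA2 and TRHR, with 80 to 362 counts per pig, had fewer total counts than CGA, FSHB, TSHB or NR5A1. The standard errors of their log2 fold changes, 0.23 and 0.24, were still below that of CGA, 0.27.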
